A study of Mus musculus with 20 samples.

Results

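The receptors that read corticosteroid levels, an enzyme that regenerates the active hormone, and several genes often read as their targets were followed across the preoptic area (POA) of 20 male mice. The genes were Nr3c1 (glucocorticoid receptor), Nr3c2 (mineralocorticoid receptor), Hsd11b1 (11β-hydroxysteroid dehydrogenase type 1), the metallothioneins Mt1, Mt2 and Mt3, and the sulfotransferase Sult1a1. They were chosen by gene symbol, and all 7 were found among the 25239 genes of the count table.

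Corticosterone, the main glucocorticoid of mice, enters cells and binds a receptor that is held by HSP90-type chaperones, and the receptor then moves to the nucleus and changes transcription at its response elements. The mineralocorticoid receptor binds corticosterone more tightly than the glucocorticoid receptor does, so that the pair cover low and high hormone levels in the brain. Metallothioneins are small cysteine-rich proteins that bind zinc and copper. The genes Mt1 and Mt2 respond to metals through the factor MTF1 and to glucocorticoids.

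The mice were killed at postnatal day (PND) 320, after 300 days in pairs formed at PND 20. The 4 groups held 5 mice each. Control mice lived with a male partner (control SS, same sex) or with a female partner (control OS, opposite sex), and dnFGFR mice were housed in the same ways (dnFGFR SS and dnFGFR OS). dnFGFR mice are homozygous for a transgene encoding a truncated FGF receptor 1 without its kinase domain, under a rat GnRH promoter that acts in GnRH neurons, a small population of the tissue. Control mice came from the same colony, from matings of heterozygous siblings. OS pairs bred freely and raised litters, so that housing with a female also stands for mating and the presence of pups. All control mice were collected in June or July and dnFGFR mice in May, apart from dnFGFR SS replicate 4 in November, so that genotype and collection date cannot be told apart.

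Between 32353578 and 39871353 reads were counted on genes in each mouse. Levels are given as CPM, the reads of a gene relative to all counted reads of its library, with libraries scaled to each other by the trimmed mean of M values (TMM). The labels give each replicate as a separate mouse, and the dates of collection come from the study's own sample list. Because whole tissue was measured, fewer cells of a type and less RNA per cell cannot be told apart.

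The label of the tissue was checked against marker genes. All 10 preoptic and hypothalamic markers had reads, with Six3 the most abundant, and they summed to 133 ± 7.40 CPM in control SS mice and 119 ± 17.3 CPM in dnFGFR OS mice (SD, n = 5 each). The 6 striatal markers summed to far more, 2720 ± 249.9 CPM in control SS mice, with Ppp1r1b, which encodes DARPP-32, the most abundant. In dnFGFR OS mice they summed to 2055 ± 311 CPM (SD, n = 5). Choroid plexus and ependymal markers ranged from 44.6 CPM in dnFGFR SS replicate 4 to 2193 CPM in dnFGFR OS replicate 3, with Ttr, which encodes transthyretin, the most abundant. Transcripts typical of neighbouring tissue were thus present in amounts that differed between mice.

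One library stood apart. The score of dnFGFR OS replicate 5 for the leading principal component (log2 CPM) was 69.2, while the other 19 mice scored between -29.8 and 16.0. For each library, the median deviation from the mean over mice was taken for the GC-richest and the GC-poorest quintile of transcripts. Their difference was -0.622 (log2) in this mouse, against values from -0.199 to 0.231 in the others. It had the highest level of both receptors and the lowest level of Mt1 and Mt2 of all 20 mice. At the other end lay dnFGFR OS replicate 2, with the lowest score on this component (-29.8) and the highest on the next (34.5, against 34.2 in dnFGFR SS replicate 4). The difference between the shortest and the longest quintile of transcripts was 0.434 in dnFGFR OS replicate 2 and -0.540 in dnFGFR OS replicate 5, against values from -0.180 to 0.299 in the other mice. Log2 fold changes for housing in dnFGFR mice that changed sign or moved by over 1.5 times without dnFGFR OS replicate 5 are therefore given both ways.

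**Figure D1:**
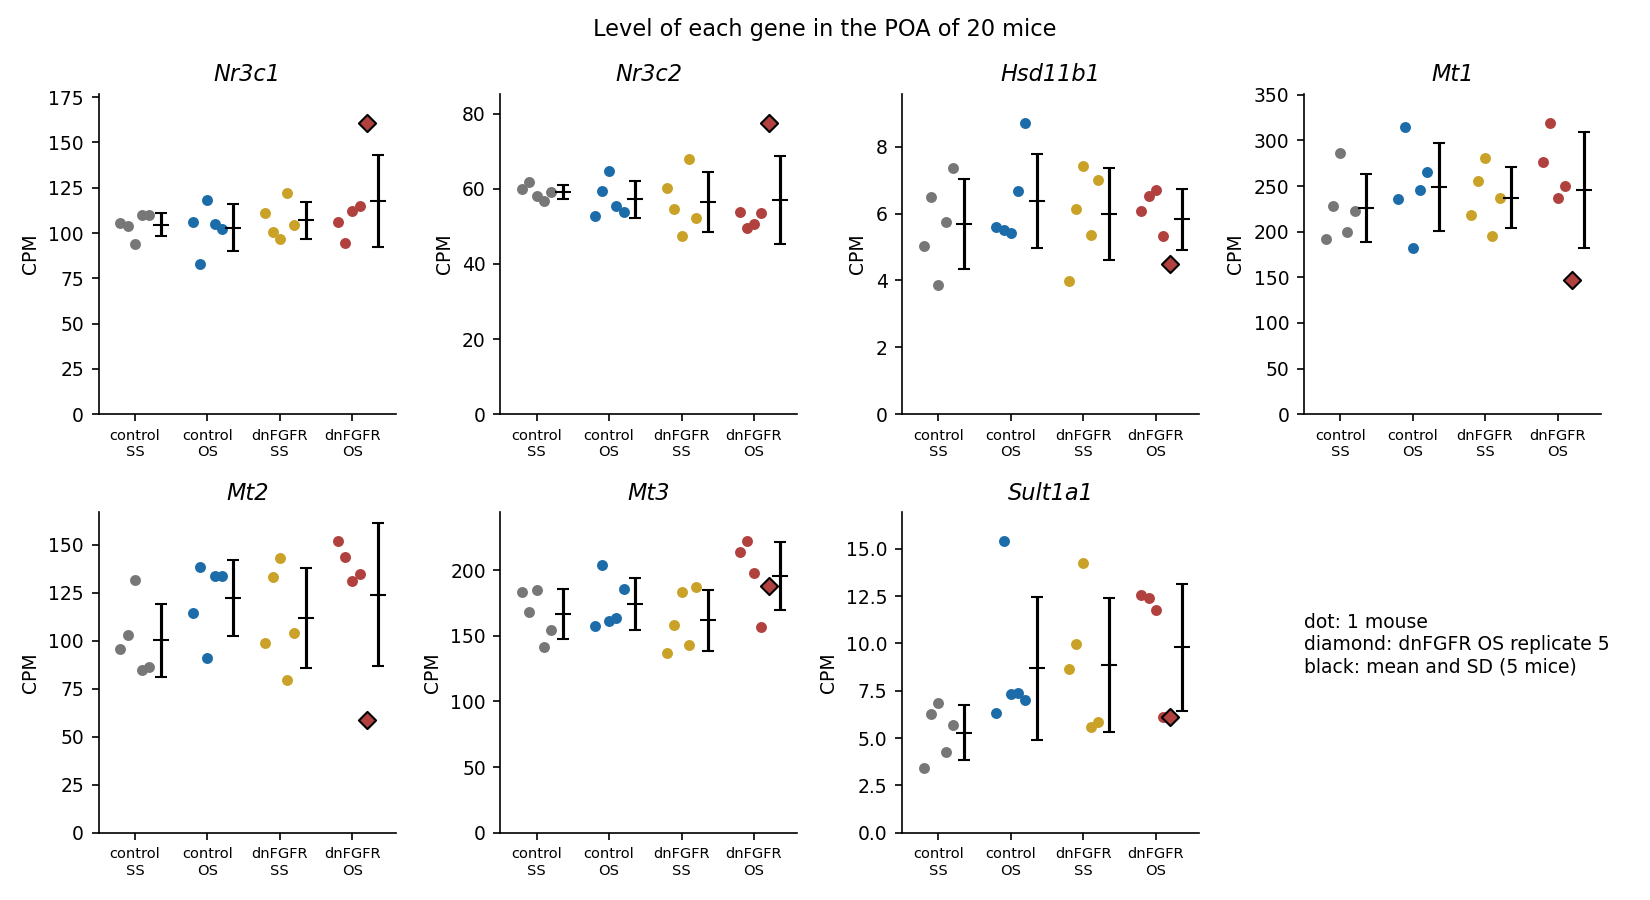
CPM of each gene (vertical axes, from 0) in every mouse of the 4 groups (horizontal axes), with the mean and SD of 5 mice in black. Sult1a1 was above 11 CPM in 1 control OS, 1 dnFGFR SS and 3 dnFGFR OS mice, and dnFGFR OS replicate 5 (diamond) was highest for Nr3c1 and Nr3c2 and lowest for Mt1 and Mt2.

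Levels of different genes were compared per kilobase of transcript. Mt1 was the most abundant, with 436 ± 80.4 CPM per kb, followed by Mt3 with 326 ± 45.1 and Mt2 with 224 ± 51.3 CPM per kb (SD, n = 20 mice). The receptors were far lower, with 17.1 ± 2.42 CPM per kb for Nr3c1 and 10.1 ± 1.23 CPM per kb for Nr3c2. Sult1a1 had 5.95 ± 2.48 and Hsd11b1 3.68 ± 0.740 CPM per kb. These values used the longest RefSeq-linked transcript of each gene (549 bases for Mt1 and 6327 for Nr3c1, for example). With all annotated exons counted in the length, Mt2 (195 ± 44.6), Mt1 (192 ± 35.4) and Mt3 (164 ± 22.7 CPM per kb) overlapped, so that the order within the metallothioneins depended on the length used. Hsd11b2, whose enzyme inactivates corticosterone in mineralocorticoid target cells, had 0 to 11 reads per mouse and 0.0691 ± 0.0502 CPM per kb. Mt4, a metallothionein of squamous epithelia, had 1 read in 1 mouse and none in the other 19.

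**Figure D2:**
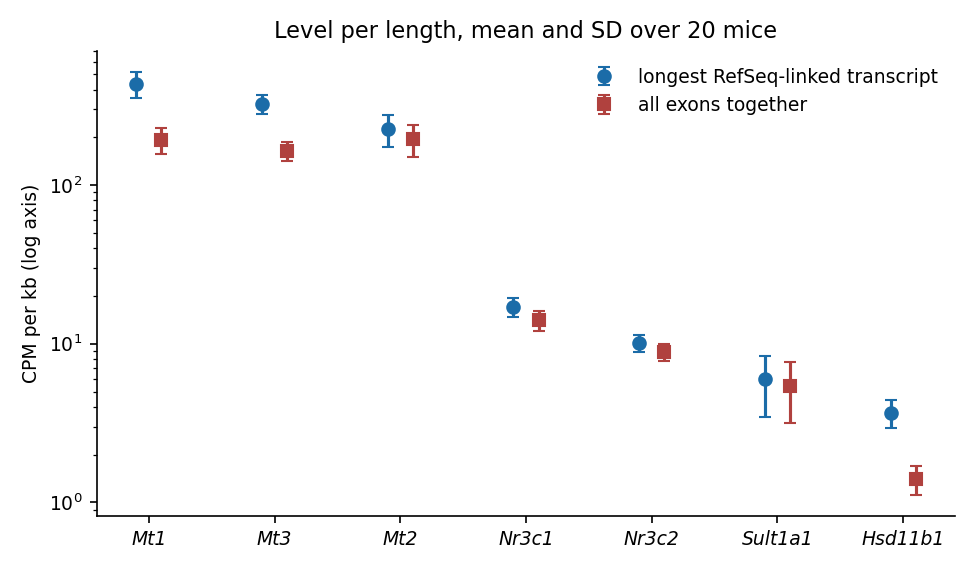
Mean CPM per kb and SD over 20 mice (vertical axis, log scale) of each gene (horizontal axis), with the length of the longest RefSeq-linked transcript (circles) or of all exons together (squares). Mt1, Mt2 and Mt3 lie above 160 CPM per kb by either length, and the other genes below 18.

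None of the 7 genes passed the test in any of the 6 comparisons made. Genes were tested with edgeR's quasi-likelihood test with Benjamini-Hochberg adjustment over all genes tested, at an adjusted p under 0.1. For OS against SS housing, 21 of 17004 genes (0.124%) passed in control mice, 0 of 16944 (0%) in dnFGFR mice, and 6 of 17445 (0.0344%) over both genotypes. In dnFGFR mice, where no gene passed with edgeR, 1138 genes had an unadjusted p under 0.05, and DESeq2 called 5 genes. That number was 677 without dnFGFR SS replicate 2 and 2860 without dnFGFR OS replicate 2, the lowest and the highest as each mouse was left out, with 0 genes passing in each of these fits. Between genotypes, 34 of 16992 genes (0.2%) passed in SS mice and 9 of 16941 (0.0531%) in OS mice. These counts depended on the tool and the fit. DESeq2 called 157 genes for housing in control mice, 287 over both genotypes, and 226 in SS and 78 in OS mice between genotypes. For housing in control mice edgeR called 0 genes without control SS replicate 4, with 1322 at an unadjusted p under 0.05, and 0 with all 4 groups in 1 fit, with 752. The housing by genotype interaction gave 0 of 17445 genes (0%) with edgeR, 595 with an unadjusted p under 0.05, and 1 gene with DESeq2. For the interaction, 1987 genes had an unadjusted p under 0.05 without dnFGFR OS replicate 2 and 0 passed (edgeR). With these backgrounds, a count of 0 among 7 genes does not set them apart from the rest. Their median log2 fold change was 0.14 for housing in control mice and 0.14 in dnFGFR mice, the latter 0.19 without dnFGFR OS replicate 5. Over all genes tested the medians were 0.0021 and 0.0037, which the scaling of libraries to each other keeps near 0. The median size of the log2 fold change over all genes, in either direction, was 0.0722 and 0.105. A median of 7 genes is the value of 1 gene. No adjusted p of a member fell under 0.1 in the 127 alternative fits either.

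**Figure D3:**
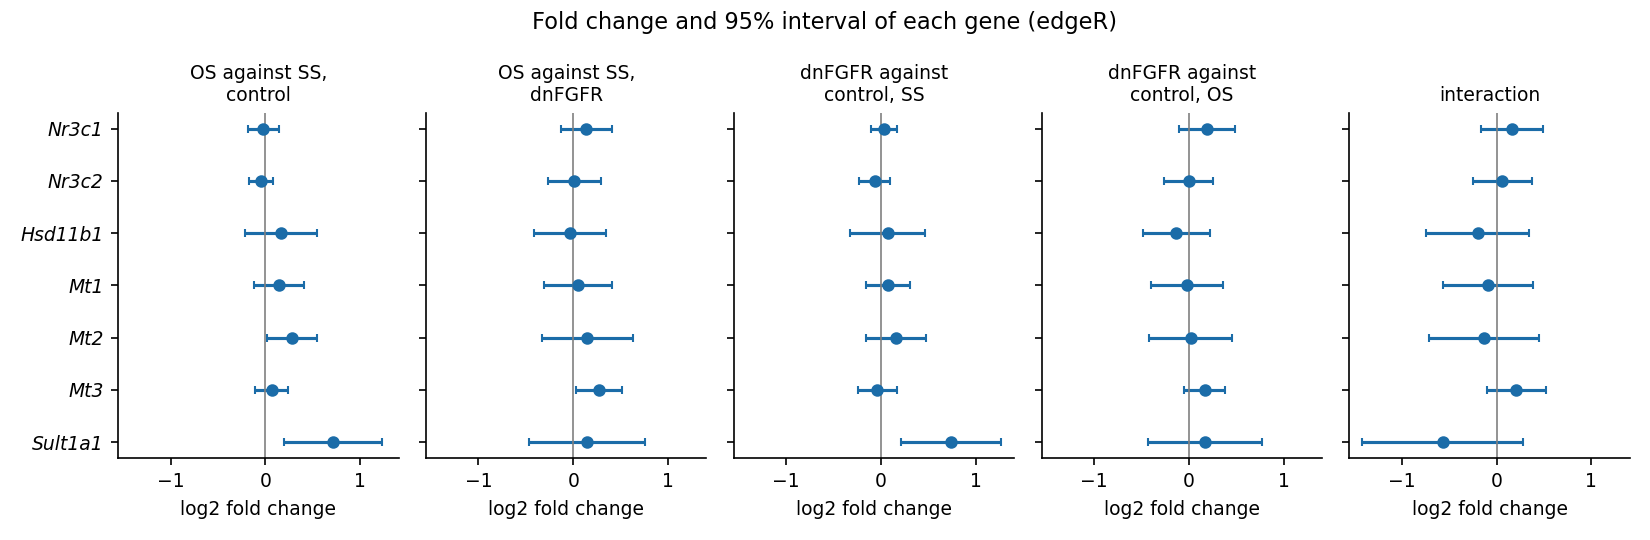
Log2 fold change (horizontal axes) of each gene (vertical axis) with its 95% interval in 4 comparisons and their interaction (edgeR). Only the intervals of Sult1a1 and Mt2 in control mice, of Mt3 in dnFGFR mice and of Sult1a1 between genotypes in SS mice lie off 0, and none of these passed after adjustment.

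Nr3c1 encodes the glucocorticoid receptor (chromosome 18, 39410545 to 39519421, minus strand, GRCm38). It was at 106, 104, 94.2, 109.7 and 109.8 CPM in control SS mice and at 106, 83.0, 118.5, 105 and 102.5 CPM in control OS mice. In dnFGFR SS mice it was at 111, 100.3, 96.5, 122 and 105 CPM, and in dnFGFR OS mice at 106, 94.6, 112, 115 and 161 CPM. The groups overlapped throughout, and 161 CPM in dnFGFR OS replicate 5 was the highest value. The log2 fold change of OS against SS housing was -0.02 (SE 0.0782) in control mice, with a 95% interval from -0.189 to 0.145. In dnFGFR mice it was 0.14 (SE 0.124, interval -0.129 to 0.408), and 0.0013 (SE 0.0833) without dnFGFR OS replicate 5. Between genotypes, the log2 fold change was 0.03 (SE 0.0643) in SS mice and 0.19 (SE 0.136) in OS mice, the latter 0.05 (SE 0.0977) without that mouse. As each mouse was left out, the value for housing ranged from -0.08 (without control OS replicate 3) to 0.05 (without control OS replicate 2) in control mice, and reached 0.21 in dnFGFR mice without dnFGFR OS replicate 2.

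Nr3c2 encodes the mineralocorticoid receptor (chromosome 8, 76898083 to 77245012, plus strand). Its levels were 59.8, 61.9, 58.1, 56.7 and 59.1 CPM in control SS mice and 52.7, 59.3, 64.8, 55.3 and 53.8 CPM in control OS mice. They were 60.2, 54.7, 47.5, 68.0 and 52.1 CPM in dnFGFR SS mice and 53.7, 49.6, 50.5, 53.6 and 77.6 CPM in dnFGFR OS mice. In control OS mice, 3 of 5 values lay below every control SS value and 1 above, and control SS mice had the narrowest spread. Housing gave a log2 fold change of -0.05 (SE 0.0604, 95% interval -0.176 to 0.081) in control mice. In dnFGFR mice it was 0.01 (SE 0.131) with all mice and -0.12 (SE 0.0955) without dnFGFR OS replicate 5. Between genotypes it was -0.07 (SE 0.0775) in SS mice and -0.003 (SE 0.121) in OS mice, the latter -0.14 (SE 0.0751) without that mouse. As each mouse was left out, the value for housing in control mice ranged from -0.10 (without control OS replicate 3) to -0.02 (without control OS replicate 1), and in dnFGFR mice it reached 0.09 without dnFGFR SS replicate 4. Gm10649, which overlaps Nr3c2, had 26 to 99 reads per mouse against 1677 to 2541 for Nr3c2.

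The balance between the receptors was described by their ratio. Nr3c1 exceeded Nr3c2 per kb in every mouse, by 1.69 ± 0.167 times (SD, n = 20). The ratio per kb was 1.59 ± 0.115 in control SS mice, 1.62 ± 0.215 in control OS mice, 1.71 ± 0.0972 in dnFGFR SS mice and 1.85 ± 0.114 in dnFGFR OS mice (SD, n = 5 each). It ranged from 1.255 in a control OS mouse to 1.995 in a dnFGFR OS mouse, and neighbouring groups overlapped.

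Hsd11b1 encodes the enzyme that converts inert 11-dehydrocorticosterone to corticosterone inside cells (chromosome 1, 193221640 to 193264045, minus strand). It was at 5.02, 6.48, 3.86, 5.74 and 7.36 CPM in control SS mice and at 5.59, 5.50, 5.42, 6.67 and 8.72 CPM in control OS mice. In dnFGFR SS mice it was at 3.97, 6.12, 7.42, 5.36 and 7.01 CPM, and in dnFGFR OS mice at 6.07, 6.54, 6.70, 5.32 and 4.49 CPM. Every group overlapped every other, and these levels rest on 137 to 307 reads per mouse. The log2 fold change for housing was 0.16 (SE 0.177, 95% interval -0.213 to 0.540) in control mice and -0.04 (SE 0.177, interval -0.419 to 0.344) in dnFGFR mice, the latter 0.04 (SE 0.173) without dnFGFR OS replicate 5. As each mouse was left out, the value ranged from 0.02 (without control OS replicate 5) to 0.27 (without control SS replicate 5) in control mice, and from -0.15 (without dnFGFR SS replicate 1) to 0.05 (without dnFGFR SS replicate 3) in dnFGFR mice. These values thus depended on single mice.

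Mt1, Mt2 and Mt3 lie next to each other on the plus strand of chromosome 8 (94178883 to 94180327, 94172618 to 94173567 and 94152607 to 94154148). The bases before the annotated starts of Mt1 and Mt2 are shown because these genes moved together across mice (below) and are known to respond to metals and glucocorticoids. The sequences are the 250 bases before the start in RefSeq on GRCm38.p6, on the plus strand. Capitals mark matches to the core of the metal response element (TGCACNC or TGCGCNC, either strand) in both genes, but in Mt1 the first run of capitals is a match to the glucocorticoid response element, spelled GNACA and TGTNC with 3 bases between them, which reads the same on either strand.
Mt1, chr8:94178839-94179088: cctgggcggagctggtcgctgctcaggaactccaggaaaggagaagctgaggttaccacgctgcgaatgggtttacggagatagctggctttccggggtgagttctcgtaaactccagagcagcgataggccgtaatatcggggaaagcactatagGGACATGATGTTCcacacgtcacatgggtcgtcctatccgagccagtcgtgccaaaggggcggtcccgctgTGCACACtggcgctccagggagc
Mt2, chr8:94172368-94172617: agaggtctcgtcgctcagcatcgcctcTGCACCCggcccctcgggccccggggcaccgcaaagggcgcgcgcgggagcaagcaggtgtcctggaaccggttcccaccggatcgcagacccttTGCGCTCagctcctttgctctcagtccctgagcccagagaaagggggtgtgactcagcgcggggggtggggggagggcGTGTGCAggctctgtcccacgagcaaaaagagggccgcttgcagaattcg
The core of the metal response element was found once in this window of Mt1, with 16 bases between it and the start, and 3 times in that of Mt2. The windows of Nr3c2 and Hsd11b1 held 1 match each, as many as that of Mt1, and those of Mt3 and Sult1a1 held 0. At least 1 match was present in 21.4% of 32851 windows of the same length before RefSeq genes. In the 300 bases that also take in the first 50 of the transcript, Mt1 had 3 matches, Mt2 had 4, Mt3, Nr3c2 and Hsd11b1 had 1 each and Sult1a1 had 0, and 1.97% of all such windows had 3 or more. The glucocorticoid element was found in the Mt1 window, with 81 bases between it and the start, and in 0.387% of all windows of 250 bases, and in none of the windows of Mt2, Mt3, Nr3c2, Hsd11b1 and Sult1a1. The motifs did not overlap. A match in letters is a description and not a binding site. Windows were found for 6 of the 7 genes, all but Nr3c1. Other annotated transcripts start up to 152 bases downstream for Mt1 and 242 bases downstream for Mt2, and the Mt1 gene of RefSeq begins within the window shown, where a predicted transcript starts. The windows of Nr3c2, Hsd11b1 and Sult1a1 lie within the spans given for these genes, so that the matches there depend on the start taken.

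Mt1 was at 192, 228, 286, 199 and 222 CPM in control SS mice and at 236, 314, 182, 246 and 266 CPM in control OS mice. In dnFGFR SS mice it was at 218, 255.5, 281, 195.5 and 237 CPM, and in dnFGFR OS mice at 277, 319.5, 237, 249.9 and 147 CPM. The range within each group exceeded any difference between groups. The log2 fold change for housing was 0.14 (SE 0.125, 95% interval -0.124 to 0.407) in control mice and 0.05 (SE 0.167) in dnFGFR mice, the latter 0.19 (SE 0.112) without dnFGFR OS replicate 5. In control mice it ranged from 0.05 (without control OS replicate 2) to 0.24 (without control SS replicate 3) as each mouse was left out, and in dnFGFR mice it fell to -0.06 without dnFGFR OS replicate 2.

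Mt2 was at 95.6, 103, 132, 85.0 and 86.4 CPM in control SS mice and at 114.5, 138, 91.2, 134 and 134 CPM in control OS mice. In dnFGFR SS mice it was at 99.0, 133, 143, 79.4 and 104 CPM, and in dnFGFR OS mice at 152, 143.5, 131, 135 and 58.8 CPM. In control mice, 3 of 5 OS values lay above all SS values, with 91.2 CPM in replicate 3 as the low one. The mean was 100.4 ± 19.1 CPM in control SS and 122 ± 19.7 CPM in control OS mice (SD, n = 5 each). On the log2 scale OS mice were higher by 0.29 (SE 0.124, 95% interval 0.022 to 0.548, unadjusted p = 0.0357 and adjusted p = 0.638, edgeR), a difference that did not pass. In dnFGFR mice the log2 fold change was 0.15 (SE 0.222, adjusted p = 0.890, edgeR). Without dnFGFR OS replicate 5 it was 0.33 (SE 0.141, unadjusted p = 0.0371 and adjusted p = 0.843, edgeR). Over both genotypes the log2 fold change was 0.22 in all mice (SE 0.137, unadjusted p = 0.127 and adjusted p = 0.586, edgeR), and 0.31 without that mouse (SE 0.101, unadjusted p = 0.00592 and adjusted p = 0.216). Mt2 thus passed in none of these fits. On the collection dates that held both housings, the log2 fold change was 0.09 in control mice (unadjusted p = 0.492, edgeR, 2 SS and 5 OS mice) and -0.04 in dnFGFR mice (unadjusted p = 0.883). As each mouse was left out, the value ranged from 0.23 (without control SS replicate 4) to 0.40 (without control SS replicate 3) in control mice, and in dnFGFR mice it was as low as 0.05 (without dnFGFR SS replicate 4).

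Mt3, the metallothionein of neurons and astrocytes, was at 183.5, 168, 185, 142 and 154.5 CPM in control SS mice and at 157, 204, 161, 164 and 185.5 CPM in control OS mice. It was at 137, 158, 184, 143 and 187.5 CPM in dnFGFR SS mice and at 214, 222, 198, 156 and 188 CPM in dnFGFR OS mice. In dnFGFR mice, 4 of 5 OS values lay above every SS value, while replicate 4 was within the SS range. The log2 fold change for housing in dnFGFR mice was 0.27 (SE 0.113, 95% interval 0.031 to 0.517, unadjusted p = 0.0301 and adjusted p = 0.726, edgeR). It was 0.29 without dnFGFR OS replicate 5 and 0.63 (unadjusted p = 0.00354 and adjusted p = 0.850, edgeR) once trends on GC content and length were removed. With both changes together it was 0.42 (unadjusted p = 0.00518 and adjusted p = 0.911, edgeR). Mt3 has the most GC-rich transcript of the 7 genes (62.3%, against 41.5% for Nr3c1). In control mice the log2 fold change was 0.07 (SE 0.0826), or 0.005 without control OS replicate 2 and 0.11 without control SS replicate 3, and the interaction was 0.21 (SE 0.149, unadjusted p = 0.177 and adjusted p = 0.963, edgeR). With the trends removed the interaction was 0.59 (unadjusted p = 0.0112 and adjusted p = 0.994, edgeR), so that a difference between genotypes in this response was not shown in either fit.

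Sult1a1, a phenol sulfotransferase that conjugates phenols, catecholamines and estrogens, varied most (chromosome 7, 126672865 to 126690443, minus strand). It was at 3.40, 6.29, 6.83, 4.27 and 5.68 CPM in control SS mice and at 6.34, 15.4, 7.32, 7.40 and 6.99 CPM in control OS mice. In dnFGFR SS mice it was at 8.64, 9.97, 14.2, 5.56 and 5.85 CPM, and in dnFGFR OS mice at 12.6, 12.4, 11.7, 6.13 and 6.11 CPM. In control mice, 4 of 5 OS values exceeded every SS value, with control OS replicate 2 far above the others. In each dnFGFR group the values fell apart into 3 mice above 8 CPM and 2 below 7 CPM. These levels rest on 113 to 540 reads per mouse.

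The mean CPM of Sult1a1 in control OS mice was 1.64 times that in control SS mice, with a log2 fold change of 0.71 (SE 0.242, 95% interval 0.198 to 1.228, unadjusted p = 0.00997 and adjusted p = 0.474, edgeR). Its rank by p was 353 of 17004 genes. Without control OS replicate 2 the log2 fold change was 0.41 (unadjusted p = 0.038 and adjusted p = 0.746, edgeR), and it ranged from 0.41 to 0.82 as each control mouse was left out. On shared collection dates it was 0.36 (unadjusted p = 0.256, edgeR). In SS mice, dnFGFR mice were higher than control mice with a log2 fold change of 0.74 (SE 0.248, 95% interval 0.211 to 1.271, unadjusted p = 0.00951 and adjusted p = 0.373, edgeR), a comparison that shares its control SS mice with the previous one. Without dnFGFR SS replicate 3, its highest mouse, this was 0.50 (unadjusted p = 0.0354 and adjusted p = 0.660, edgeR). In OS mice the difference between genotypes was 0.17 (SE 0.278, unadjusted p = 0.548, edgeR), and it ranged from 0.07 (without dnFGFR OS replicate 1) to 0.48 (without control OS replicate 2). In dnFGFR mice housing gave 0.14 (SE 0.283), or 0.27 (SE 0.273) without dnFGFR OS replicate 5, and it ranged from 0.02 (without dnFGFR SS replicate 4) to 0.38 (without dnFGFR SS replicate 3) as each mouse was left out. The interaction was -0.57 (SE 0.409, 95% interval -1.419 to 0.280, unadjusted p = 0.178, edgeR), but -0.25 without control OS replicate 2 and -0.31 without dnFGFR SS replicate 3. Slx1b, which overlaps Sult1a1, had 561 to 970 reads per mouse, more than Sult1a1 itself, and the library kit does not mark strand. How reads of the overlap were counted is not given, so that they may be assigned to either gene or left out.

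Within groups, Mt2, Mt1 and Sult1a1 varied more than most genes of like abundance. The within-group SD was 0.376 for Mt2, 0.297 for Mt1 and 0.511 for Sult1a1 (log2 CPM), and 99.2%, 97.5% and 97.8% of genes within 0.5 log2 CPM of their mean level had a smaller one. For Nr3c1 (SD 0.189) and Nr3c2 (SD 0.178) these shares were 86.4% and 80.2%, and for Mt3 (SD 0.183) and Hsd11b1 (SD 0.313) 84.6% and 78.1%. The same 3 genes had the highest shares without dnFGFR OS replicate 5, a setting chosen after seeing the data. The SD was then 0.260 for Mt2, 0.231 for Mt1 and 0.499 for Sult1a1, and the shares were 97.7%, 96.5% and 98.0%. They were 74.7% for Nr3c1 (SD 0.140), 63.3% for Nr3c2 (SD 0.126), 91.5% for Mt3 (SD 0.189) and 82.7% for Hsd11b1 (SD 0.307).

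Relations among the genes were followed from mouse to mouse. Deviations of each mouse from its group mean (log2 CPM, prior count 2) were correlated for all 21 pairs of genes, with 100000 permutations within groups and Benjamini-Hochberg adjustment over the 21 pairs. In 13 pairs, both Pearson's r and Spearman's rho had an adjusted p under 0.1. In these libraries large r were common among genes at large: the weakest r of the 13 pairs had a size of 0.519, and 16.4% of all pairs of the 17445 genes had one at least as large, in either direction. The relation of Nr3c1 with Mt1 was matched in size by 0.00455% of all gene pairs, that with Mt2 by 0.123% and that of Mt1 with Mt2 by 0.0534%. For Sult1a1 these shares were larger, 3.74% with Nr3c1, 4.11% with Mt1 and 8.04% with Mt2. Mice with more Nr3c1 had less Mt1 (r = -0.956, rho = -0.911, adjusted permutation p = 0.00021 and 0.000105), less Mt2 (r = -0.901, rho = -0.932, adjusted permutation p = 0.00021 and 0.000105) and less Sult1a1 (r = -0.720, rho = -0.713, adjusted permutation p = 0.00223 and 0.00403). Mt1 and Mt2 varied together (r = 0.920, rho = 0.913, adjusted permutation p = 0.00028 and 0.00014). Mt1 and Sult1a1 (r = 0.711, rho = 0.722, adjusted permutation p = 0.00223 and 0.00474) and Mt2 and Sult1a1 (r = 0.631, rho = 0.699, adjusted permutation p = 0.00749 and 0.00403) did so too. The unadjusted p of 1e-05 for Nr3c1 with Mt1 is the smallest that these permutations can give. Without the 2 mice whose Nr3c1 was farthest from the median, dnFGFR OS replicate 5 and control OS replicate 2, r of Nr3c1 was -0.930 with Mt1, -0.883 with Mt2 and -0.640 with Sult1a1.

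The sign of these relations was the same in both genotypes, which were collected at different times. Among the 10 control mice r of Nr3c1 was -0.893 with Mt1, -0.789 with Mt2 and -0.757 with Sult1a1, and among the 10 dnFGFR mice it was -0.992, -0.946 and -0.708. Other pairs differed between genotypes in value. Nr3c1 and Nr3c2 had r = 0.121 in control and 0.932 in dnFGFR mice, and in all mice r was 0.748 (rho = 0.553, adjusted permutation p = 0.0158 and 0.0409) but 0.486 without dnFGFR OS replicate 5 (adjusted permutation p = 0.120). The difference between genotypes was not tested. Without that mouse, 10 pairs were past the threshold, of which 9 were among the 13.

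Values of 1 library share its base composition and fragment lengths, and the transcripts differ in both: Nr3c1 is long and poor in GC, and Mt1 and Mt2 are short and rich in GC. Each library's trend on transcript GC content and length was therefore removed, a step chosen after the relations were seen. The number of pairs past the threshold fell from 13 to 6. These were Nr3c1 with Mt1 (r = -0.744, rho = -0.800, adjusted permutation p = 0.00042 and 0.00189), with Mt2 (r = -0.762, rho = -0.726, adjusted permutation p = 0.00315 and 0.00742) and with Sult1a1 (r = -0.716, rho = -0.707, adjusted permutation p = 0.00718 and 0.00815), and the 3 pairs among Mt1, Mt2 and Sult1a1. With the trends removed, r was 0.748 for Mt1 and Mt2, 0.655 for Mt1 and Sult1a1 and 0.543 for Mt2 and Sult1a1. Of all gene pairs with the trends removed, 6.92% had an r at least as large in size as the weakest of the 6, and 0.633% as large as that of Nr3c1 with Mt1. When dnFGFR OS replicate 5 was left out as well, 5 pairs were past the threshold, all but Mt2 with Sult1a1 (r = 0.471, adjusted permutation p = 0.199). Nr3c2 and Mt3 took part in none of the 6 pairs, and r of Nr3c1 with Mt3 moved from -0.578 to 0.121 with the trends removed. Without dnFGFR OS replicate 5, r of Nr3c1 with Mt3 was -0.742 before and -0.287 after the trends were removed.

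**Figure D4:**
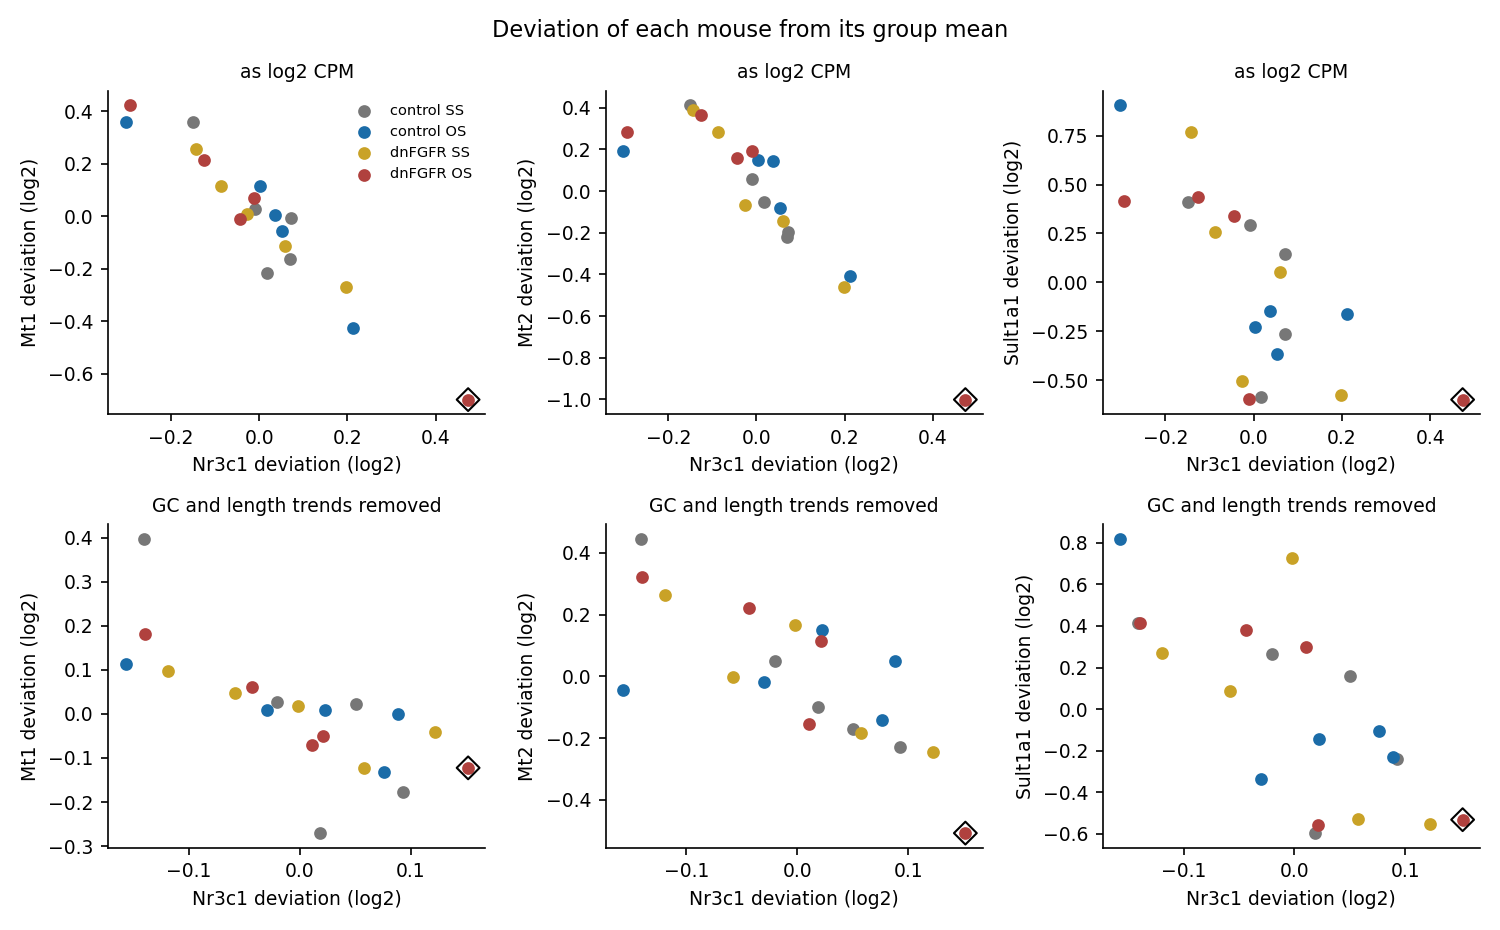
Deviation of each mouse from its group mean (log2) for Nr3c1 (horizontal axes) against Mt1, Mt2 and Sult1a1 (vertical axes), before (upper row) and after (lower row) each library's trend on GC content and length was removed. Mice with higher Nr3c1 had lower values of the other gene in all 6 panels, with r from -0.956 to -0.716, and the open diamond marks dnFGFR OS replicate 5.

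The genes whose log2 CPM was most like that of each member over the 20 mice were named without a test. For Mt1 they were Mt2 (r = 0.914), Mrgbp (0.901) and Lrrc39 (0.879). For Mt2 they were Mt1 (0.914), Klf15 (0.878), which encodes a transcription factor known to be induced by glucocorticoids, and Mfsd2a (0.877), the lysophosphatidylcholine transporter of brain endothelium. Sult1a1 was most like Snx1 (0.860), Ada (0.854), which encodes adenosine deaminase, and Rin2 (0.832). Nr3c1 was most like Rabgap1l (0.928), Arap2 (0.920) and Zeb2 (0.914), and Nr3c2 like Tomm70a (0.885), Csnk1g1 (0.879) and Arhgap20 (0.878). Without dnFGFR OS replicate 5, these 6 values lay between 0.792 and 0.855. Mt3 was most like Atp5h (0.908), Tomm6os (0.864) and Map1lc3b (0.854), and Hsd11b1 like 1700048M11Rik (0.730), Osgep (0.719) and Esrp1 (0.716).

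Genes known to be induced by glucocorticoids were compared with the members as a list of 28 genes, of which 27 were tested. The list was chosen with earlier results of these data known, so that its counts and medians are a description. In control mice 7 of the 27 were higher in OS than in SS mice, where 0.124% of all genes tested were called, and 25 of 27 had a positive fold change. Their median log2 fold change was 0.41, beside 0.0021 over all genes and a median size of 0.0722 in either direction. Besides Hif3a (1.47, SE 0.195) and Tsc22d3 (0.69, SE 0.0946), which encodes GILZ, the 7 were Sgk1 (1.02, SE 0.197, adjusted p = 0.0945), a kinase acting on ion transport, Arrdc2 (1.01, SE 0.157, adjusted p = 0.0389), Pdk4 (0.91, SE 0.147, adjusted p = 0.0473), which restrains glucose oxidation, Mfsd2a (0.45, SE 0.0773, adjusted p = 0.0608) and the glucose transporter Slc2a1 (0.40, SE 0.0694, adjusted p = 0.0608, edgeR). Fkbp5, the co-chaperone that lowers receptor affinity, had 0.21 (SE 0.0886, adjusted p = 0.611), and Dusp1, a MAP kinase phosphatase, had -0.58 (SE 0.138, adjusted p = 0.212, edgeR). The corresponding values of the receptor genes Nr3c1 and Nr3c2 were -0.02 and -0.05.

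The count of 7 depended on the fit and on single mice. With all 4 groups in 1 fit it was 0, with 25 positive and a median of 0.41, and with DESeq2, which tested 28, it was 12. Without control SS replicate 4 it was 0, without control SS replicate 5 it was 2, and without control OS replicates 1 or 4 it was 3, while 23 to 25 of 27 genes had a positive fold change whichever mouse was left out. On shared collection dates 0 of 27 passed, with 23 positive and a median of 0.28. Choroid plexus and ependymal markers had positive fold changes in control mice too, 8 of 8 with a median log2 fold change of 1.395, but none of them passed. Their sum was 351.7 ± 443.7 CPM in control SS and 1229 ± 821 CPM in control OS mice (SD, n = 5 each), with Ttr the most abundant and no marker at 0 in all mice, and their part in the result was not tested.

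In dnFGFR mice 0 of the 27 glucocorticoid-induced genes passed and 17 had a positive fold change, with a median of 0.06. Without dnFGFR OS replicate 5, 23 were positive with a median of 0.16 and none passed. Slc2a1 (0.15, SE 0.165) had the smallest p among the positive and the clock gene Per1 (-0.28, SE 0.135) among the negative ones, and these were 0.25 (SE 0.148) and -0.17 (SE 0.0885) without that mouse. No gene of the list passed the test of the interaction, where 24 of 27 were negative with a median of -0.32, or -0.205 without that mouse. Between genotypes in SS mice, a comparison that has its control SS mice in common with that of housing in control mice, 0 of 27 passed while 20 had an unadjusted p under 0.05, all of them higher in dnFGFR mice, and the median was 0.42. Over all 16992 genes tested, 1467 (8.63%) had an unadjusted p under 0.05. In OS mice 19 of 27 were higher in dnFGFR mice with a median of 0.11, or 23 with a median of 0.27 without dnFGFR OS replicate 5, and none passed. Tsc22d3 was split within dnFGFR SS mice, at 98.0, 112, 145, 54.7 and 63.9 CPM, against 46.5 to 63.1 CPM in control SS mice. The first 3 of these dnFGFR SS mice were also those above 8 CPM for Sult1a1. The match did not hold throughout the OS groups. Tsc22d3 was at 103 CPM in dnFGFR OS replicate 4 and 107 CPM in control OS replicate 4, with Sult1a1 at 6.13 and 7.40 CPM.

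**Figure D5:**
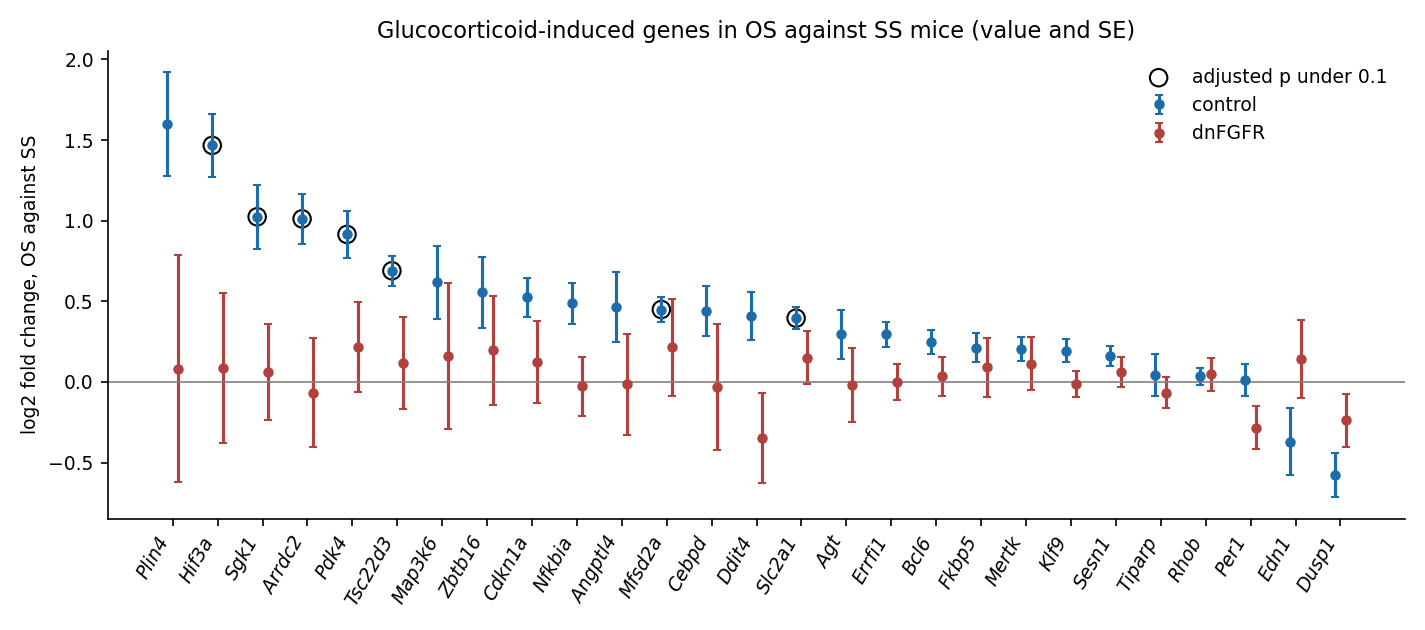
Log2 fold change of OS against SS housing and its SE (vertical axis) for each glucocorticoid-induced gene tested (horizontal axis), in control and in dnFGFR mice. Open circles mark the 7 genes past the threshold, all in control mice. The dnFGFR values, drawn with all mice, lie between -0.35 and 0.22. Without dnFGFR OS replicate 5 (not drawn) they lie between -0.26 (Dusp1) and 0.42 (Mfsd2a).

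Within groups, the same list was set against the members as a description. With each library's trends removed, the median r of the 27 genes was 0.629 with Mt2, 0.475 with Sult1a1, 0.248 with Mt1 and -0.378 with Mt3, beside medians of 0.00549, 0.00332, 0.00105 and 0.0030 over all 17234 genes. It was -0.543 with Nr3c1 and -0.479 with Nr3c2. Of the 27 genes, 19 had r over 0.5 with Mt2, against 4.92% of all genes, and 15 had r under -0.5 with Nr3c1, against 3.76% of all genes. In a setting chosen after seeing the data, without dnFGFR OS replicate 5, the medians were 0.422 with Mt2, 0.396 with Sult1a1, 0.152 with Mt1, 0.0108 with Mt3, -0.456 with Nr3c1 and -0.269 with Nr3c2. Then 11 of the 27 genes had r over 0.5 with Mt2, against 3.54% of all genes, and 9 had r under -0.5 with Nr3c1, against 2.54%. The size of these medians, and for Mt3 the sign, thus depended on that mouse.

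The chaperones and coregulators of the receptors held 1 call. Ptges3, which encodes the HSP90 co-chaperone p23, was higher in OS mice over both genotypes (log2 fold change 0.20, SE 0.0345, adjusted p = 0.0555, edgeR), where 0.0344% of genes were called. Recomputed after seeing the data, the log2 fold change was 0.18 to 0.21 as each mouse was left out, and the call was lost in 9 of these 20 fits, with adjusted p up to 0.158 (edgeR). These were the fits without control SS replicates 4 or 5, control OS replicates 3 or 4, dnFGFR SS replicates 1, 2 or 5, or dnFGFR OS replicates 1 or 3. On shared collection dates the value was 0.20 and did not pass (SE 0.0592, adjusted p = 0.999, edgeR), nor did that with GC and length offsets (0.14, SE 0.0306, adjusted p = 0.165) or with these and the replicate block (adjusted p = 0.133). Without dnFGFR OS replicate 5, Ptges3 passed (0.20, SE 0.0345, adjusted p = 0.0452, edgeR). It also passed with GC and length offsets and without that mouse (0.15, SE 0.0275, adjusted p = 0.0555, edgeR). Within genotypes it was 0.14 (SE 0.0432) in control and 0.25 (SE 0.0614) in dnFGFR mice, neither past the threshold, and had the smallest p of the 18 genes in that direction in each. The smallest p in the other direction was that of Crebbp in control mice (-0.14, SE 0.0709). The median of the list was 0.03 in control and -0.004 in dnFGFR mice, the latter -0.006 without dnFGFR OS replicate 5.

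Of the 11 tested genes of hormone supply and the stress axis, 0 passed in any comparison. Crh, which encodes corticotropin-releasing hormone, was at 5.93 ± 0.986 CPM in control SS and 6.36 ± 1.18 CPM in control OS mice (SD, n = 5 each). Its log2 fold change was 0.10 (SE 0.149) in control and -0.08 (SE 0.146) in dnFGFR mice, the latter -0.02 (SE 0.144) without dnFGFR OS replicate 5. Crhr2, a receptor for urocortins, had 0.46 (SE 0.168, adjusted p = 0.530) and Abcb1b, which encodes a P-glycoprotein that exports corticosteroids, -0.39 (SE 0.134, adjusted p = 0.474, edgeR) in control mice. In dnFGFR mice the corresponding genes were Star (0.18, SE 0.126, or 0.08 without that mouse) and Pomc (-0.44, SE 0.327).

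Metal handling gave 0 calls among 25 tested genes in any comparison, with a median log2 fold change of 0.02 in control and 0.045 in dnFGFR mice, the latter 0.017 without dnFGFR OS replicate 5. Mtf1, which encodes the metal-sensing factor of Mt1 and Mt2, had 0.02 (SE 0.0662, 95% interval -0.125 to 0.157) in control and -0.03 (SE 0.0617) in dnFGFR mice, or -0.01 (SE 0.0610) without that mouse. The zinc exporter Slc30a1, another target of MTF1, had -0.20 (SE 0.0777, unadjusted p = 0.0203 and adjusted p = 0.556, edgeR) in control mice. In dnFGFR mice it had 0.03, or -0.07 (SE 0.0749) without dnFGFR OS replicate 5. The part of MTF1 in these values was not tested. Atp7a, a copper transporter, had the smallest p among the positive values in control mice (0.28, SE 0.113), and Slc30a1 among the negative ones. In dnFGFR mice these places were taken by the zinc importer Slc39a6 (0.14, SE 0.0747) and by Ccs (-0.39, SE 0.149), the copper chaperone of superoxide dismutase.

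Oxidative stress genes under NRF2, which also bears on metallothioneins, gave 0 calls among 13, with medians of -0.03 and 0.01 in control and dnFGFR mice, the latter 0.002 without dnFGFR OS replicate 5. Nfe2l2, the gene of NRF2 itself, had 0.23 (SE 0.0786, adjusted p = 0.492, edgeR) and 0.20, and G6pdx had -0.10 (SE 0.0561) and -0.11 (SE 0.0716). Of the other genes of sulfonation, 0 passed. In control mice Sult1c2 had 1.44 (SE 0.934) and Sult2b1 -0.14 (SE 0.227), and in dnFGFR mice Papss2, which makes the sulfate donor, had 0.26 (SE 0.106) and Papss1 -0.04 (SE 0.0648), or 0.16 and -0.02 without that mouse.

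No cell type marker passed in any of the 6 comparisons. Astrocytes, a main site of Mt1 and Mt2 expression in brain, had a median log2 fold change of 0.03 over 9 markers in control mice and 0.16 in dnFGFR mice, the latter 0.087 without dnFGFR OS replicate 5. The smallest p were those of Aldh1l1 (0.11) and Sox9 (-0.22) in control mice and of Aqp4 (0.23, or 0.15 without that mouse) and Aldoc (-0.13, or -0.08) in dnFGFR mice. Their sum was 4175 ± 145 CPM in control SS and 4240 ± 174 CPM in control OS mice, with Slc1a2 the most abundant and none at 0. Endothelial markers had a median of -0.10 in control mice. In dnFGFR mice it was 0.045 with 5 of 8 positive, and turned to -0.027 with 2 of 8 positive without dnFGFR OS replicate 5. Cldn5 was at -0.46 (SE 0.0932, adjusted p = 0.104, edgeR) in control mice and -0.24 in dnFGFR mice, Ly6c1 at 0.25 in control mice and Slc16a1 at 0.16 in dnFGFR mice, or 0.09 without that mouse. Among mural and meningeal markers, Slc6a13 had -0.71 (SE 0.140, adjusted p = 0.102, edgeR) and Igf2 0.35 in control mice, and Kcnj8 had 0.50 and Col1a1 -0.48 in dnFGFR mice. Their part in the values of the metallothioneins was not tested.

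The remaining markers are given by the genes of smallest p in each direction. In control mice these were Clic6 (0.53) for choroid plexus, Mobp (0.26) and Mog (-0.03) for oligodendrocytes, Tmem119 (0.09) and C1qb (-0.15) for microglia, and Slc17a6 (0.18) and Gad2 (-0.08) for neurons. They were Gal (0.34) and Six3 (-0.05) for the preoptic area and hypothalamus, Rgs9 (-0.18) for striatum and Hbb-bt (-0.50) for blood. In dnFGFR mice they were Kcnj13 (0.90) and Foxj1 (-0.13) for choroid plexus and ependyma, Mag (-0.13) for oligodendrocytes, and P2ry12 (0.23) and C1qa (-0.14) for microglia. For neurons they were Snap25 (0.09) and Rbfox3 (-0.31), for the hypothalamus Nts (0.17) and Six3 (-0.17), for striatum Ppp1r1b (-0.42) and for blood Hbb-bs (-0.55). All 6 striatal markers were lower in OS mice in both genotypes, without passing. Without dnFGFR OS replicate 5, Foxj1 turned to 0.02, C1qa was -0.01, Six3 -0.11 and Hbb-bs -0.84.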

How the data were processed

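The deposited values are raw counts per gene, made by the authors from libraries whose kit does not mark strand. Alignment (HISAT2) was to GRCm38, and genes were taken from RefSeq (Rsubread). The submitters' processing notes also name DESeq2 1.36.0. How reads over several genes were counted is not given in the sources used here. A further 20 columns of the table belong to no sample described for the series and were not used. The table holds 25239 genes.

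Counts of 20 mice were tested with edgeR 4.0.16 (TMM, filterByExpr, quasi-likelihood) in R 4.3.3, each pairwise comparison on its own groups, the interaction and the comparison over both genotypes on all mice. SE is the size of the log2 fold change divided by the square root of F. Alternatives were DESeq2 1.42.0, RLE size factors, no filter, all 4 groups in 1 fit, the replicate number as a block, offsets for GC content and length of transcripts (GENCODE M21, same build, 24730 genes matched, lowess span 0.3), shared collection dates with the date as a block, and each mouse left out. The edgeR fits and the permutation test were tested on simulated data. These held no library trends on GC content or length, so that the behaviour of the tests under such trends was not covered. Relations used Python 3.11.15 with numpy 2.4.6 and scipy 1.17.1. The members, the lists and the motifs were chosen with earlier results of these data known. Named genes were the members, genes passing the test in any list, the gene of smallest p in each direction for both housing comparisons, and the 3 genes most like each member by r. Some genes under this rule are not reported here. p-values measure the spread between mice of a group.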

Additional observations from a re-analysis of the deposited data

Results flagged for a closer look

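In 3 of the 28 combinations of gene and group, 1 mouse lay farther from the other 4 than Dixon's limit allows (a gap over 0.710 of the range of its group). Chance flags about 1 in 20 groups. Nr3c2 was 77.6 CPM in dnFGFR OS replicate 5, the highest of its group, and Mt2 was 58.8 CPM in the same mouse, the lowest of its group. Sult1a1 was 15.4 CPM in control OS replicate 2, the highest of its group, where the other mice had 6.34 to 7.40 CPM.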

How the results depend on the processing

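No member passed in any of 127 alternative fits, most of which left out 1 mouse. DESeq2 was run with all mice only. The study's own setting, DESeq2 after removal of outlier mice, is thus not among them. Of 889 member values in the 127 fits, 822 kept their direction and 67 did not. The numbers of the replicates do not pair the mice: of 30 pairs of same-numbered mice, 4 deviated together with r over 0.1 and 4 correlated best with their own number. With the replicate block, the genes called were 23, 0, 6, 41, 3 and 0 (for housing in control mice, in dnFGFR mice and over both, genotype in SS and in OS mice, and interaction), and Mt2 between genotypes in OS mice was -0.027. DESeq2 called 157, 5, 287, 226, 78 and 1 genes in the same order, and 12 glucocorticoid-induced genes in control mice. GC and length offsets gave 40 genes for control housing, 2 over both genotypes, 52 for genotype in SS and 24 in OS mice, and with the block 61 for control housing. All 4 groups in 1 fit gave 0 genes for control housing, 0 of the glucocorticoid list and 45 for genotype in OS mice. Shared dates gave 1 gene for control housing, 0 over both genotypes and 0 of the glucocorticoid list. Offsets without dnFGFR OS replicate 5 gave 20 genes over both genotypes and 25 for genotype in OS mice. The causes were not tested.

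Log2 fold changes that reversed on shared dates were 0.0542 (Nr3c1), -0.0285 (Mt1) and -0.0165 (Mt3) in control mice, 0.1315 (Hsd11b1), -0.0822 (Mt1) and -0.0424 (Mt2) in dnFGFR mice, and -0.0504 (Mt1) over both. With offsets they were -0.0379 (Nr3c2) for dnFGFR housing, 0.1523 (Mt1) for genotype in OS mice, and -0.0122 (Nr3c2), 0.1249 (Mt1) and 0.0397 (Mt2) for the interaction. With offsets and block these were -0.0388, 0.1502, -0.0136, 0.1169 and 0.0095. With offsets and without dnFGFR OS replicate 5 they were -0.0049 (Nr3c1) and -0.1011 (Nr3c2) for dnFGFR housing, -0.0050 (Nr3c1) over both, 0.1753 (Mt1) for genotype in OS mice, and -0.0758 (Nr3c2), 0.1555 (Mt1) and 0.1467 (Mt2) for the interaction. Nr3c2 for genotype in OS mice was 0.0036 with DESeq2 and 0.0038 with RLE size factors.

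As each mouse was left out, the genes called ranged from 0 (without control SS replicate 4) to 32 for control housing, from 0 to 65 over both, from 21 to 70 for genotype in SS and from 3 to 16 in OS mice, and the glucocorticoid calls from 0 to 8. Log2 fold changes that crossed 0 ranged as follows. Nr3c1 ranged from -0.0788 to 0.0479 for control housing, -0.0085 to 0.1026 over both and -0.0206 to 0.0639 for genotype in SS mice. Nr3c2 ranged from -0.123 to 0.0883 for dnFGFR housing, -0.0806 to 0.0176 over both, -0.144 to 0.0472 for genotype in OS mice and -0.0691 to 0.1404 for the interaction. Hsd11b1 ranged from -0.1534 to 0.0517 for dnFGFR housing, -0.0039 to 0.1167 over both, -0.0434 to 0.1835 for genotype in SS and -0.1868 to 0.0068 in OS mice. Mt1 ranged from -0.0561 to 0.1894 for dnFGFR housing, -0.1283 to 0.1179 for genotype in OS mice and -0.1894 to 0.0543 for the interaction. Mt2 ranged from -0.0679 to 0.1953 and -0.2497 to 0.0485 for the last 2, and Mt3 from -0.1013 to 0.0118 for genotype in SS mice.

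The relations were recomputed in settings chosen after seeing the data, as were the fits with offsets and without dnFGFR OS replicate 5. Of 13 pairs, 6 were past the threshold with GC and length trends removed and 5 when that mouse was also left out. Reversed r with trends removed were 0.241 (Nr3c1 and Hsd11b1), 0.121 (Nr3c1 and Mt3), 0.392 (Nr3c2 and Mt3), -0.183 (Hsd11b1 and Mt1), -0.311 (Hsd11b1 and Mt3), -0.201 (Mt2 and Mt3) and -0.0738 (Mt3 and Sult1a1). Without the mouse as well they were 0.439 (Nr3c1 and Hsd11b1), 0.0246 (Nr3c2 and Mt3), -0.272 (Hsd11b1 and Mt1), -0.159 (Hsd11b1 and Mt2) and -0.137 (Hsd11b1 and Mt3). Hsd11b1 and Sult1a1 had the fewest reads of the 7 genes, 113 to 540 per mouse, and so the largest relative counting error among them.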
